A study of Mus musculus with 9 samples.

Results

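The transcripts described here are 40 textbook targets of microRNAs, measured in mouse oocytes that lack Dicer or Dgcr8. They were chosen by gene symbol, 25 as published targets of the let-7 family and 15 as published targets of the miR-15/16, miR-17 or miR-30 families. Of the 40 symbols, 36 had a probe set that names exactly 1 gene, and 34 of these passed the filter on low signal (log2 signal of at least 4 in at least 3 of the 9 arrays). The same steps gave 19938 genes in the whole value table and 17324 genes tested. Hmga1, Igf2bp2 and Hras were not analysed here, Cdkn1a was read only by a probe set shared with a second gene, and Acvr1c and Fign stayed under the filter.

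The study compared metaphase II oocytes, the ovulated stage that awaits fertilisation, of 3 genotypes on the C57BL/6 background: Dicer knockout, Dgcr8 knockout and wild-type, with 3 arrays each that the labels call biological replicates. All females received 7.5 IU of PMSG and then 7.5 IU of hCG, hormones that ripen follicles and trigger ovulation. Oviducts were taken 14 to 16 h after hCG, and the cumulus cells around the oocytes were removed with hyaluronidase at 0.3 mg/ml for about 3 to 5 min and washing. The sources used here do not say how the alleles were made, what removed them, how old the females were or how many oocytes or females each array holds, so the p-values measure the spread between these arrays. Each array reports total RNA on a log2 scale, and a change per oocyte cannot be told apart from a change relative to the rest of the oocyte's RNA.

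MicroRNAs are short RNAs that guide Argonaute proteins to matching sites, mostly in the 3′ untranslated regions of messenger RNAs, where they lower translation and speed up decay. Dgcr8, with the nuclease Drosha, cuts primary microRNA transcripts into hairpins, and Dicer cuts those hairpins into mature microRNAs. Dicer also cuts long double-stranded RNA into endogenous small interfering RNAs, which mouse oocytes make and for which Dgcr8 is not needed. In somatic and embryonic cells, loss of let-7 raises Hmga2, Lin28a, Trim71 and other growth genes, and the miR-15/16 and miR-17 families hold back cyclins, E2F partners and the death activator Bcl2l11.

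Each of the 4 families has a seed of its own, bases 2 to 8 from the 5′ end, which its members share and which pairs with the target. The mature sequences below are from RefSeq (build GRCm38.p6), with the seed in capitals, and are shown because the transcripts were listed as targets of these families. The let-7 seed, whose match in a target reads CUACCUC, occurs in 11 of the 1679 mature mouse microRNAs of that table, the miR-15/16 seed (match UGCUGCU) in 10, the miR-17 seed (match GCACUUU) in 7 and the miR-30 seed (match UGUUUAC) in 4.
let-7a-5p: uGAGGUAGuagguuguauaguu
let-7g-5p: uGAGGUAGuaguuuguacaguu
let-7i-5p: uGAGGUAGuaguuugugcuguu
miR-98-5p: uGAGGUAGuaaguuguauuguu
miR-15a-5p: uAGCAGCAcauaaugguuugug
miR-16-5p: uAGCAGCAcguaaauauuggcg
miR-17-5p: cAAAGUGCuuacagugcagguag
miR-20a-5p: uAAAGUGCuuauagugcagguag
miR-106b-5p: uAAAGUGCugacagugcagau
miR-30a-5p: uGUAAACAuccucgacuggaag
miR-30e-5p: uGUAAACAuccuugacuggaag
The let-7a copy shown lies in Mirlet7a-1 at chr13:48538239-48538260 on the minus strand, miR-16 in Mir16-1 at chr14:61631936-61631957 on the minus strand, miR-17 in Mir17 at chr14:115043684-115043706 on the plus strand and miR-30a in Mir30a at chr1:23272274-23272295 on the plus strand. miR-98 carries the same seed as let-7a under another name. The seed counts hold for the table of mature sequences used, which was not checked for missing family members. Target sites in the members were not analysed here.

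Each targeted gene was lower in the knockout named for it. Dgcr8 read 5.47, 5.98 and 5.70 in Dgcr8 knockout arrays, against 8.85, 9.05 and 8.97 in wild-type arrays, and Dicer1 read 10.82, 10.77 and 10.57 in Dicer knockout arrays, against 11.66, 11.67 and 11.67 in wild-type arrays. Dicer1 fell by 0.95 on the log2 scale in Dicer knockouts (adjusted p = 1.0e-05) and Dgcr8 fell by 3.24 in Dgcr8 knockouts (adjusted p = 1.1e-05). In Dicer knockout arrays Dgcr8 read 8.37, 8.28 and 8.72, a change of −0.50 (adjusted p = 0.064). The sources used here do not place the probes relative to the deleted exons. Arrays of 1 group correlated at 0.991 or more. The median signal of 10 oocyte marker genes lay between 11.79 and 12.11 in Dicer knockout arrays, between 11.64 and 11.76 in Dgcr8 knockout arrays and between 11.66 and 11.82 in wild-type arrays. Of these 10 the zona pellucida gene Zp2 rose by 0.40 in Dicer knockouts (adjusted p = 0.020) and Zp3 had a change of 0.40 (adjusted p = 0.077). For 5 of the 10 all Dicer knockout arrays lay above the wild-type arrays, and for 0 all lay below. Among the 17324 genes tested 1736 lay above and 2796 below in this way. In Dicer knockouts 11.3% of all genes passed, and 23.7% had an unadjusted p under 0.05. Of 11 cumulus and granulosa markers tested, 0 passed limma's test in Dicer knockouts (2 at an unadjusted p under 0.05). These markers were dim, with a median signal of 4.75. Among all genes with a mean signal up to 6, 3.04% passed in Dicer knockouts. The list's summed linear signal was 340 to 347 in Dicer knockout, 344 to 368 in Dgcr8 knockout and 349 to 367 in wild-type arrays. Of 5 immune and blood markers, only the lysosomal protein gene Cd68 passed in Dicer knockouts, with a rise of 0.96. Csf1r and Itgam had changes of 0.02 and 0.06. Ptprc (CD45) averaged 4.81 in Dicer knockout, 4.86 in Dgcr8 knockout and 4.85 in wild-type arrays. The summed signal of the list was 223 to 340, 175 to 202 and 157 to 205 in those groups. Cd68 makes up most of that sum in each Dicer knockout array, and the highest sum comes with Lyz2 (lysozyme) in Dicer knockout replicate 3, at 6.13, against 3.68 and 3.93 in the other Dicer knockout arrays. Of 6 oviduct markers, the smooth muscle myosin gene Myh11 fell by 0.46, with a summed signal of the list of 852 to 973 in Dicer knockout arrays, 1164 to 1195 in Dgcr8 knockout arrays and 1124 to 1186 in wild-type arrays. Myh11 makes up most of that sum, the smooth muscle actin gene Acta2 had a change of 0.14 (adjusted p = 0.592), and none of the 6 but Myh11 passed. The part these markers play in the changes below was not tested.

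In Dgcr8 knockout oocytes, none of the 34 tested transcripts passed limma's test against wild-type at an adjusted p under 0.05, and 0 had an unadjusted p under 0.05. Over all genes 0.0231% passed, or 4 of 17324 (0.0173% higher and 0.00577% lower), and 2.64% had an unadjusted p under 0.05. The 34 changes ran between −0.21 for Bcl2 and 0.36 for Rbl2, with a median of 0.0055, beside −0.0029 over all genes tested. The 95% interval of the change lay inside 1.5-fold in either direction for 33 of the 34 (97.1%), and for 92.8% of all genes. The exception was Rbl2, whose wild-type replicate 3 read 5.90, against 7.11 and 7.08 in the other wild-type arrays. Only Snai1, of the 34, had Dgcr8 knockout arrays that did not overlap the wild-type arrays (2.94%, and 6.54% of all genes): it read 7.06, 7.05 and 6.78 in Dgcr8 knockout arrays and 7.08, 7.08 and 7.14 in wild-type arrays.

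In Dicer knockout oocytes 3 of the 34 transcripts rose (Stat3, Hmga2 and Nr6a1) and 3 fell (Bcl2l11, Rbl1 and Cdk6), which is 17.6%, beside 11.3% of all genes tested. Among all genes 4.87% rose and 6.47% fell. The members' quartiles were −0.13 and 0.22, with a median of −0.04, and those of all genes −0.14 and 0.07, with a median of −0.03. The 3 Dicer knockout arrays did not overlap the 3 wild-type arrays for 16 members, 9 above and 7 below (47.1%, and 26.2% of all genes), and 12 had an unadjusted p under 0.05 (35.3%, and 23.7%). The members read brighter than the average gene, with a median signal of 7.86 against 6.41 over all genes, and the share of genes that passed differed by signal. Among genes with a mean signal up to 6, 3.04% passed and 0 of 8 members did; between 6 and 8, 14.2% and 2 of 10; between 8 and 10, 21.0% and 4 of 12; above 10, 19.3% and 0 of 4. Both knockouts were set against the same 3 wild-type arrays, so their changes are not independent of each other.

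**Figure D1:**
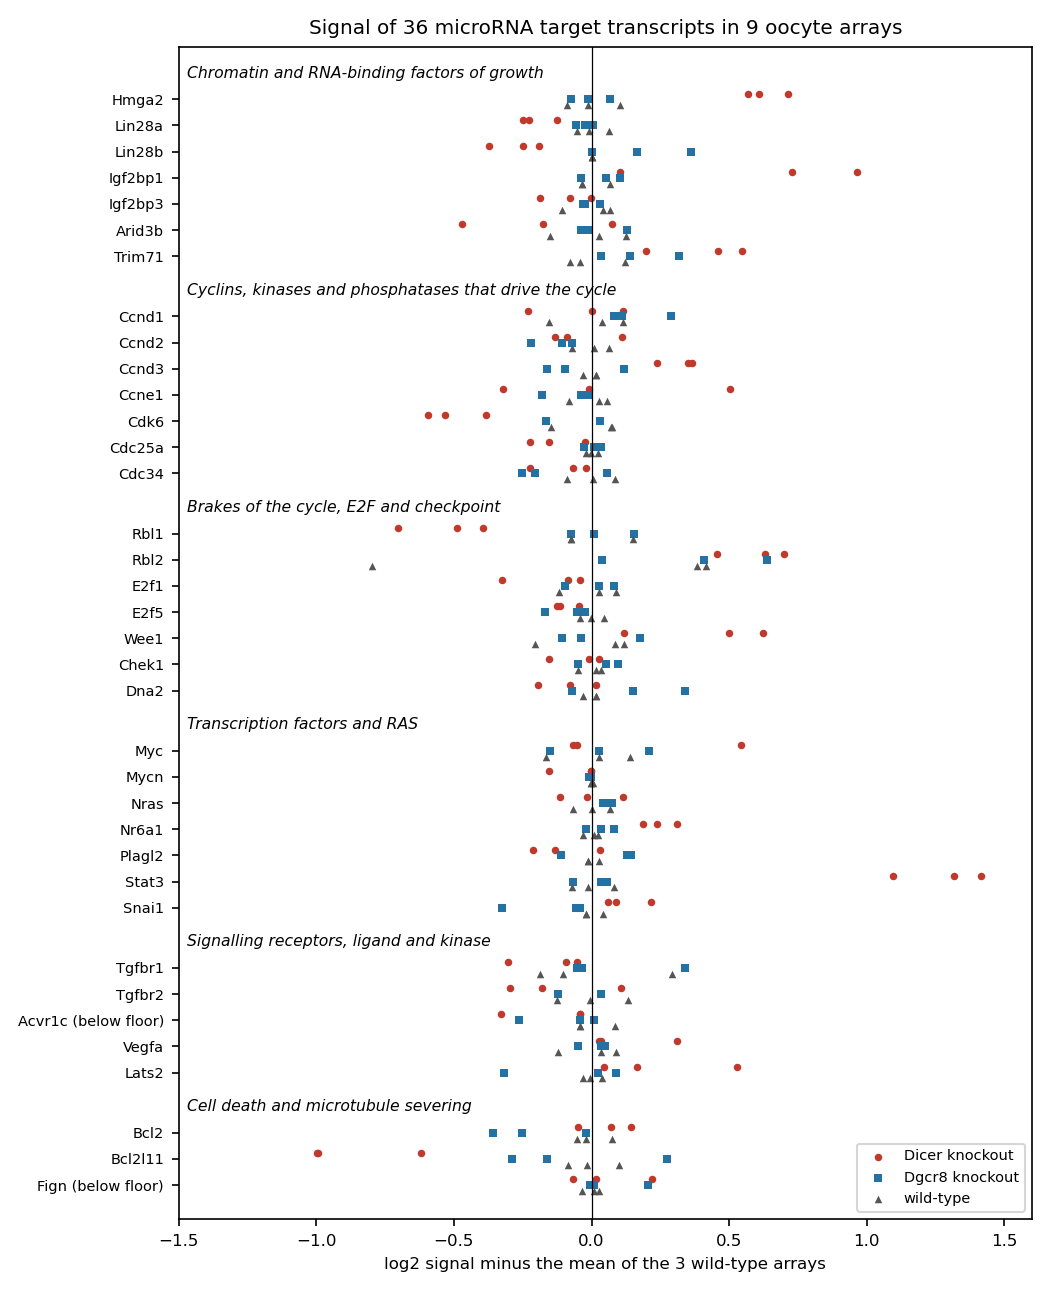
Log2 signal of the 36 transcripts in each of the 9 arrays, as the difference from the mean of the 3 wild-type arrays, ordered by role; circles are Dicer knockout, squares Dgcr8 knockout and triangles wild-type arrays. Dicer knockout circles stand clear to the right for Stat3 and Hmga2 and to the left for Bcl2l11, while Dgcr8 knockout squares lie among the wild-type triangles for nearly every transcript, Snai1 being the 1 tested member whose squares do not overlap them.

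Among chromatin and RNA-binding factors of growth, all listed as let-7 targets, 1 of 7 tested transcripts rose in Dicer knockouts and 0 fell. That is 14.3% called, beside 11.3% of all genes tested (4.87% higher and 6.47% lower). The roles were not tested as groups. Hmga2 (probe set 10372796), an architectural chromatin protein and the best known let-7 target, read 9.38, 9.23 and 9.27 in Dicer knockout arrays, 8.65, 8.73 and 8.59 in Dgcr8 knockout arrays and 8.77, 8.58 and 8.65 in wild-type arrays. All Dicer knockout arrays were above all others, and Dgcr8 knockout and wild-type arrays overlapped. The change was 0.63 ± 0.08 (SE, n = 3 each; 1.55-fold) in Dicer knockouts, with an adjusted p of 0.00075, and −0.0077 in Dgcr8 knockouts (95% interval −0.19 to 0.17). Over 20 other ways of processing, the Dicer knockout change of Hmga2 lay between 0.59 and 0.68 and passed in all 20.

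The other members of this role gave changes that did not pass. Lin28a, which binds let-7 precursors and blocks their maturation, read 9.17, 9.19 and 9.29 in Dicer knockout arrays, 9.42, 9.39 and 9.36 in Dgcr8 knockout arrays and 9.36, 9.40 and 9.48 in wild-type arrays. Its Dicer knockout arrays all lay below the wild-type arrays, by −0.20 (adjusted p = 0.074). Without Dicer knockout replicate 3 the adjusted p was 0.0498. Its paralog Lin28b read 7.44, 7.56 and 7.62 in Dicer knockout arrays, 8.17, 7.81 and 7.97 in Dgcr8 knockout arrays and 7.81 in each of the 3 wild-type arrays, with a change of −0.27 in Dicer knockouts (adjusted p = 0.140) and 0.17 in Dgcr8 knockouts. The deposited value was identical in 4 of those arrays, so the wild-type spread of Lin28b is 0. A value shared by at least 2 arrays occurred in 14 of the 36 transcripts (38.9%) and in 44.8% of the 35557 probe sets of the table.

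Trim71, a let-7 target and RNA-binding ubiquitin ligase of embryonic cells, read 7.74, 8.09 and 8.0 in Dicer knockout arrays, 7.58, 7.86 and 7.68 in Dgcr8 knockout arrays and 7.46, 7.66 and 7.50 in wild-type arrays. The Dicer knockout arrays all lay above the wild-type arrays, by 0.40 (adjusted p = 0.058), and its change passed with a floor of 6 (adjusted p = 0.039) and without Dicer knockout replicate 1 (adjusted p = 0.030). Igf2bp1, which binds and stabilises growth messenger RNAs, read 6.22, 5.60 and 6.46 in Dicer knockout arrays, 5.46, 5.55 and 5.60 in Dgcr8 knockout arrays and 5.56, 5.46 and 5.46 in wild-type arrays, a change of 0.60 in Dicer knockouts (adjusted p = 0.060). Dicer knockout replicate 2 stood apart from its group, and without it the change was 0.85 (adjusted p = 0.00090). A dimmer probe set of Igf2bp1 read 4.44, 3.99 and 3.84 in Dicer knockout arrays, 3.15, 3.28 and 3.46 in Dgcr8 knockout arrays and 3.51, 3.47 and 3.63 in wild-type arrays, and the mean of both probe sets passed (adjusted p = 0.015). Igf2bp3, its paralog, and Arid3b, a DNA-binding factor, had changes of −0.09 and −0.19 in Dicer knockouts. In Dgcr8 knockouts the 7 changes of this role lay between −0.024 and 0.17.

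**Figure D2:**
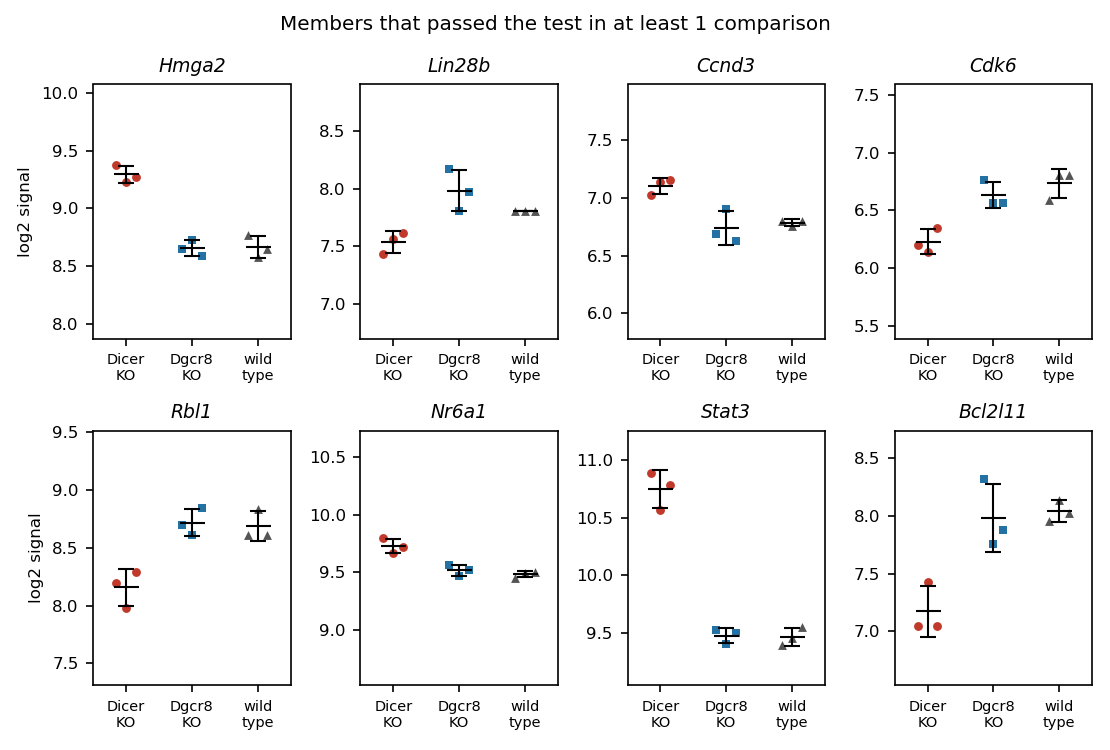
Log2 signal of the 8 members that passed the test in at least 1 comparison, each symbol 1 array, with bars for the mean and SD of 3 arrays. Every panel spans the same range of log2 signal; Stat3 has the widest gap, with Dicer knockout arrays at 10.56 to 10.88 and wild-type arrays at 9.40 to 9.55.

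Among the cyclins, kinases and phosphatases that drive the cell cycle, 1 of 7 fell in Dicer knockouts and 0 rose. That is 14.3% called, beside 11.3% of all genes. Cdk6 (probe set 10519324), the kinase partner of the D-type cyclins and a let-7 target, read 6.20, 6.14 and 6.35 in Dicer knockout arrays, 6.76, 6.57 and 6.57 in Dgcr8 knockout arrays and 6.59, 6.80 and 6.81 in wild-type arrays. Its Dicer knockout arrays lay below all others, with a change of −0.50 ± 0.10 (SE, n = 3 each; adjusted p = 0.011). Without wild-type replicate 3 the adjusted p of Cdk6 was 0.0506.

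Ccnd1 (cyclin D1) read 6.00, 6.24 and 6.35 in Dicer knockout arrays, 6.35, 6.52 and 6.32 in Dgcr8 knockout arrays and 6.27, 6.35 and 6.08 in wild-type arrays, and the groups overlapped, with changes of −0.04 in Dicer knockouts and 0.16 in Dgcr8 knockouts. Ccnd3 (cyclin D3) read 7.02, 7.14 and 7.15 in Dicer knockout arrays, 6.69, 6.90 and 6.62 in Dgcr8 knockout arrays and 6.80, 6.75 and 6.80 in wild-type arrays. Its Dicer knockout arrays lay above the wild-type arrays by 0.32 (adjusted p = 0.064), and the change passed under some alternatives, such as a floor of 6 (adjusted p = 0.045). Ccnd2 (−0.04), Ccne1 (0.06), the phosphatase Cdc25a (−0.13) and the ubiquitin-conjugating enzyme Cdc34 (−0.10) gave small changes in Dicer knockouts that did not pass. The Dicer knockout arrays of Cdc25a all lay below the wild-type arrays, and with quantile normalization its change of −0.18 passed (adjusted p = 0.044). In Dgcr8 knockouts the 7 changes lay between −0.13 and 0.16.

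Among the brakes of the cycle, the E2F factors and the checkpoint genes, 1 of 7 fell in Dicer knockouts and 0 rose. That is 14.3% called, beside 11.3% of all genes. Rbl1 (p107, probe set 10489127), a retinoblastoma-like repressor of E2F targets and a miR-17 family target, read 8.20, 7.98 and 8.29 in Dicer knockout arrays, 8.70, 8.61 and 8.84 in Dgcr8 knockout arrays and 8.61, 8.84 and 8.61 in wild-type arrays. The deposited value of Rbl1 was identical (8.611) in 3 arrays of the Dgcr8 knockout and wild-type groups, which enters its spread. Every Dicer knockout array lay below every other array, with a change of −0.53 ± 0.11 (SE, n = 3 each; adjusted p = 0.011), and the change kept its direction in all 20 alternatives, between −0.60 and −0.44. Its paralog Rbl2 (p130) read 7.39, 7.15 and 7.33 in Dicer knockout arrays, 7.10, 6.73 and 7.33 in Dgcr8 knockout arrays and 7.11, 7.08 and 5.90 in wild-type arrays, a change of 0.60 in Dicer knockouts (adjusted p = 0.254). Without wild-type replicate 3 that change was 0.20.

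Wee1, the kinase that holds Cdk1 inactive, had a change of 0.41 in Dicer knockouts (adjusted p = 0.102), which was 0.56 without Dicer knockout replicate 2 (adjusted p = 0.020). E2f1 (−0.15) and E2f5 (−0.09), which bind promoters of cell cycle genes, Chek1 (−0.05), the checkpoint kinase, and Dna2 (−0.09), a helicase and nuclease of DNA replication, did not pass in Dicer knockouts. The Dicer knockout arrays of E2f5 all lay below the wild-type arrays. Its change passed only with quantile normalization (−0.16, adjusted p = 0.049). The probe set that reads Cdkn1a (p21, an inhibitor of cyclin-dependent kinases) together with 4930567H12Rik gave 4.83, 4.86 and 5.12 in Dicer knockout arrays, 5.25, 4.92 and 5.02 in Dgcr8 knockout arrays and 4.74, 5.05 and 5.65 in wild-type arrays. The wild-type arrays spanned those of both knockouts, and since the probe set names more than 1 gene it was not tested. In Dgcr8 knockouts the 7 tested changes of this role lay between −0.08 and 0.36.

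Among transcription factors and RAS, 2 of 7 rose in Dicer knockouts and 0 fell (28.6% called, beside 11.3% of all genes). Their median signal was 8.26, and among genes with a mean signal between 8 and 10, 21.0% passed. Stat3 (probe set 10391301), the transcription factor downstream of gp130 cytokine receptors and a miR-17 family target, read 10.88, 10.56 and 10.79 in Dicer knockout arrays, 9.52, 9.40 and 9.50 in Dgcr8 knockout arrays and 9.40, 9.46 and 9.55 in wild-type arrays. The Dicer knockout arrays stood more than 1 log2 unit above every other array. The change was 1.27 ± 0.08 (SE, n = 3 each; 2.42-fold, adjusted p = 1.1e-05), the only one of the 34 to reach 2-fold, and it ranked 187 of 17324 genes from the highest. In Dgcr8 knockouts the change of Stat3 was 0.0065, with a 95% interval of −0.18 to 0.19.

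Nr6a1 (GCNF, probe set 10482249), an orphan nuclear receptor of germ cells and a let-7 target, read 9.80, 9.67 and 9.72 in Dicer knockout arrays, 9.57, 9.46 and 9.52 in Dgcr8 knockout arrays and 9.45, 9.49 and 9.51 in wild-type arrays. All Dicer knockout arrays lay above the others, by a small 0.25 ± 0.06 against wild-type (SE, n = 3 each; adjusted p = 0.023). Leaving out any 1 wild-type array ended that call (adjusted p = 0.089 without replicate 1, 0.073 without replicate 2 and 0.064 without replicate 3), as did leaving out Dicer knockout replicate 1 (0.077) or setting equal array medians (0.063).

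Myc, a growth-promoting transcription factor gene often cited among let-7 targets, read 4.22, 4.24 and 4.84 in Dicer knockout arrays, 4.32, 4.14 and 4.50 in Dgcr8 knockout arrays and 4.32, 4.13 and 4.43 in wild-type arrays, near the signal floor of 4 in all groups, and the groups overlapped (change of 0.14 in Dicer knockouts). Mycn (−0.05), Nras (−0.0056), a RAS gene of the let-7 target set, and the zinc finger factor Plagl2 (−0.10) gave changes in Dicer knockouts that did not pass. The deposited value of Mycn was identical (5.169) in 6 of the 9 arrays, which enters its change and spread. Snai1, a repressor of epithelial genes and a miR-30 target, had a change of 0.12 in Dicer knockouts and −0.14 in Dgcr8 knockouts.

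Of the 4 tested signalling genes, 0 passed limma's test in Dicer knockouts, and 0 had an unadjusted p under 0.05. Among all genes tested 11.3% passed and 23.7% had an unadjusted p under 0.05. The 4 had a median signal of 5.77, and among genes with a mean signal up to 6, 3.04% passed. The TGF-β receptors Tgfbr1 and Tgfbr2 had changes of −0.15 and −0.12, the angiogenic ligand gene Vegfa 0.12 and the Hippo pathway kinase gene Lats2 0.25. Lats2 was the 1 signalling gene whose Dicer knockout arrays did not overlap the wild-type arrays, all lying above them (25%, beside 26.2% of all genes). The activin-type receptor gene Acvr1c was under the filter, with means of 3.77 in Dicer knockout, 3.81 in Dgcr8 knockout and 3.91 in wild-type arrays.

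Of the 2 tested cell death genes, Bcl2l11 fell in Dicer knockouts and Bcl2 did not pass. Among all genes tested 11.3% passed. Bcl2l11 (Bim, probe set 10475866), an activator of mitochondrial cell death and a target of the miR-17 family, read 7.05, 7.42 and 7.05 in Dicer knockout arrays, 8.32, 7.76 and 7.88 in Dgcr8 knockout arrays and 7.96, 8.14 and 8.03 in wild-type arrays. No Dicer knockout array overlapped any other, and the change was −0.87 ± 0.16 (SE, n = 3 each; adjusted p = 0.0057), 152 of 17324 genes from the lowest. It passed in all 20 alternatives, between −0.995 and −0.806. In Dgcr8 knockouts the change of Bcl2l11 was −0.06 (95% interval −0.41 to 0.29). Bcl2, the inhibitor of that death pathway and a miR-15/16 target, had a change of 0.06 in Dicer knockouts and −0.21 in Dgcr8 knockouts, and the microtubule-severing gene Fign was under the filter.

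**Figure D3:**
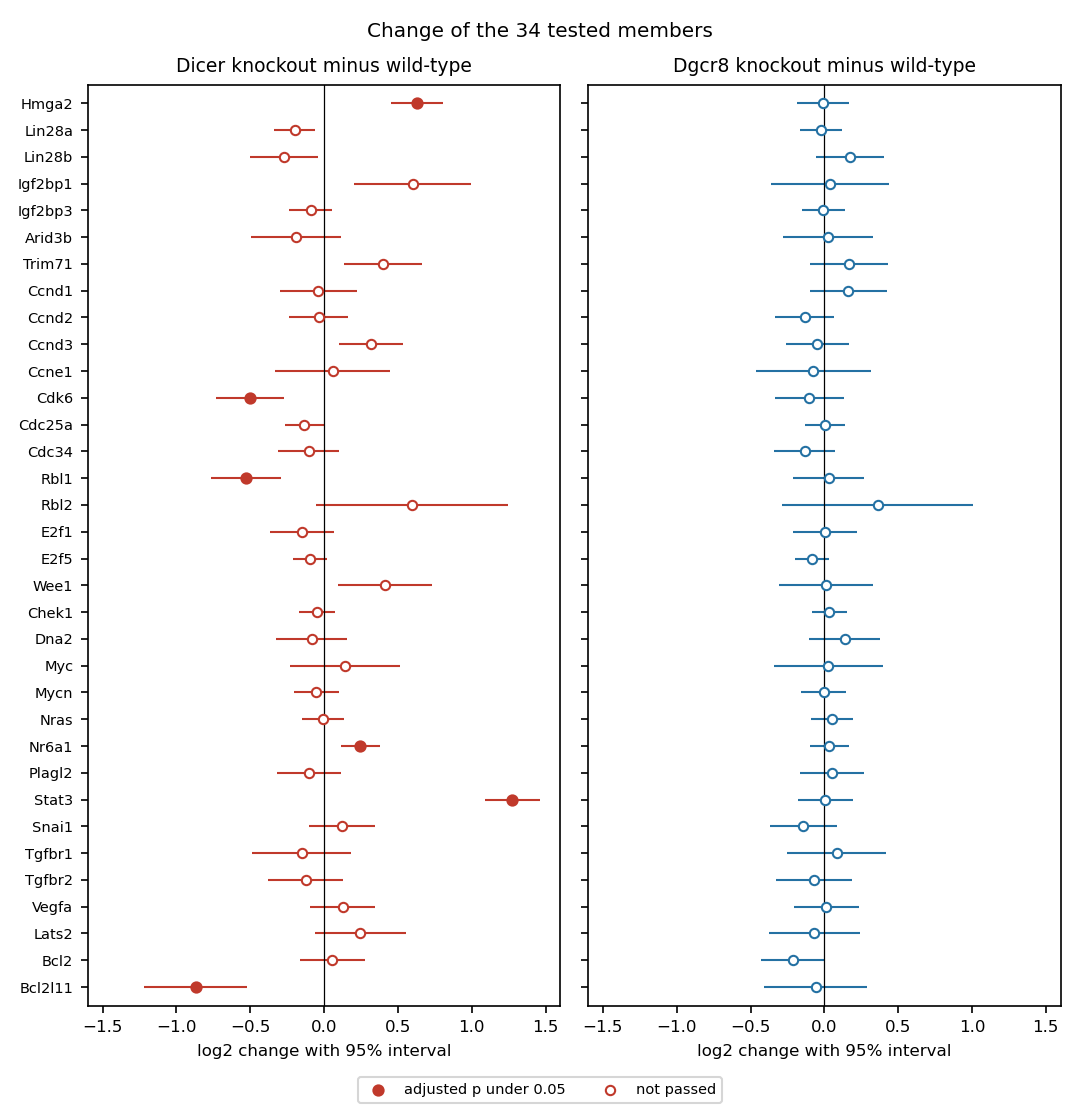
Log2 change of the 34 tested members with its 95% interval, Dicer knockout minus wild-type on the left and Dgcr8 knockout minus wild-type on the right; filled circles passed at an adjusted p under 0.05. On the left 6 are filled, with Stat3 at 1.27 and Bcl2l11 at −0.87, and on the right 0 are filled.

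The members were also read by family. The 20 tested let-7 targets had a median change of −0.09 in Dicer knockouts, with 5 estimates above 0, 2 called higher and 1 called lower (15% called). The 14 tested targets of the other families had a median of 0.09, with 9 above 0, 1 called higher and 2 called lower (21.4% called). Over all genes the median was −0.03, with 7293 of 17324 estimates above 0 and 11.3% called. The median of the let-7 targets, taken per array as the deviation from the wild-type mean, lay between −0.10 and −0.05 in Dicer knockout arrays, between −0.0073 and 0.034 in Dgcr8 knockout arrays and between −0.0027 and 0.0084 in wild-type arrays. For the other families it lay between 0.013 and 0.13 in Dicer knockout arrays, between −0.07 and 0.029 in Dgcr8 knockout arrays and between −0.039 and 0.027 in wild-type arrays. Over all genes tested it lay between −0.039 and −0.003 in Dicer knockout arrays, between −0.011 and 0.0032 in Dgcr8 knockout arrays and between −0.0071 and 0.010 in wild-type arrays. The wild-type arrays themselves set the mean used, so the wild-type ranges are centred by construction and are no independent measure of spread. Quantile normalization gave −0.12 for let-7 targets and 0.08 for the others in Dicer knockouts, and equal array medians gave −0.09 and 0.09. The median of the other families was 0.02 without Dicer knockout replicate 3 and 0.16 without Dicer knockout replicate 2. In Dgcr8 knockouts the medians were 0.027 for let-7 targets and −0.021 for the others.

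**Figure D4:**
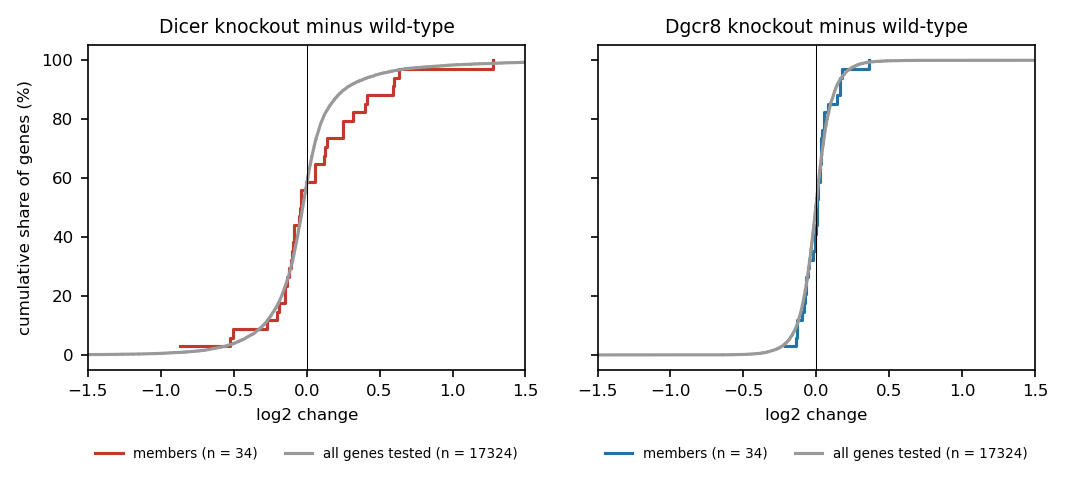
Cumulative share of the 34 tested members and of the 17324 genes tested by log2 change, Dicer knockout minus wild-type on the left and Dgcr8 knockout minus wild-type on the right, with the axis ending at 1.5 log2 units either side. On the left the members' curve lies to the right of that of all genes from just above 0 to Hmga2 at 0.63, and Stat3 at 1.27 is its last step. The members' median on the left, −0.04, lies below that of all genes, −0.03. On the right both curves rise steeply around 0.

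Dicer knockout oocytes were also set directly against Dgcr8 knockout oocytes, in the same fit, whose estimate of the spread also uses the wild-type arrays. Of the 34 members, 4 were higher (Hmga2, Ccnd3, Nr6a1 and Stat3) and 4 lower (Lin28b, Cdk6, Rbl1 and Bcl2l11) in Dicer knockouts, which is 23.5%, beside 13.4% of all genes tested (5.48% higher and 7.92% lower). The groups did not overlap for 10 members (29.4%, and 26.1% of all genes), and the median change was −0.03. Stat3 was 1.27 higher, Hmga2 0.64 higher, Bcl2l11 0.81 lower on the log2 scale (change of −0.81) and Rbl1 0.56 lower (change of −0.56), and these passed in all 20 alternatives. The Lin28b change was −0.45 (adjusted p = 0.019), and its call was lost without Dgcr8 knockout replicate 1 (adjusted p = 0.069) or 3 (0.051) or Dicer knockout replicate 1 (0.063). It was also lost with only these 2 groups in the fit (0.059), which leaves out the wild-type arrays, whose spread for Lin28b is 0. The Ccnd3 change was 0.37 (adjusted p = 0.032), and leaving out any single array ended its call except Dgcr8 knockout replicate 2 and Dicer knockout replicate 1. The calls of Cdk6 and Nr6a1 were lost in 8 and 16 of 20 alternatives. With only the Dicer and Dgcr8 knockout arrays in the fit 4 members passed, and without any 1 wild-type array neither Ccnd3 nor Nr6a1 did. Without Dgcr8 knockout replicate 1 or 3, 4 members passed, and without Dicer knockout replicate 1, 5.

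A second list of 64 further published microRNA targets gave 55 tested genes. In Dgcr8 knockouts 0 of the 55 passed limma's test and 1 had an unadjusted p under 0.05 (1.82%, beside 2.64% of all genes). The median change was 0.0021, beside −0.0029. In Dicer knockouts 3 of the 55 rose and 4 fell (12.7%, beside 11.3% of all genes), with a median of −0.06, beside −0.03. An unadjusted p under 0.05 was reached by 24 (43.6%, beside 23.7% of all genes). The 55 had a median signal of 7.77, against 6.41 over all genes. Igf1r, the receptor of insulin-like growth factor, read 7.34, 7.47 and 7.03 in Dicer knockout arrays, 8.10, 8.01 and 8.17 in Dgcr8 knockout arrays and 7.90, 7.82 and 8.12 in wild-type arrays. Its change of −0.67 in Dicer knockouts (adjusted p = 0.0076) passed in all 20 alternatives. Ppp3ca, the catalytic subunit of calcineurin, read 7.47, 7.44 and 7.30 in Dicer knockout arrays, 8.10, 8.19 and 8.11 in Dgcr8 knockout arrays and 7.87, 7.79 and 7.77 in wild-type arrays. The 3 groups of Ppp3ca did not overlap: the change was −0.41 in Dicer knockouts (adjusted p = 0.011, and 0.052 without wild-type replicate 1) and 0.32 in Dgcr8 knockouts, where it had the 1 unadjusted p under 0.05 (0.0034).

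The remaining calls of that list in Dicer knockouts were the cyclin gene Ccna2 (0.20), the repressive factor E2f6 (0.63) and the methylcytosine dioxygenase gene Tet2 (0.64), which rose, and the growth factor signalling inhibitor Spry1 (−0.62) and the DNA methyltransferase gene Dnmt3a (−0.22), which fell. Without wild-type replicate 1 none of these 5 passed, with adjusted p values of 0.073 for Ccna2, 0.121 for E2f6, 0.137 for Tet2, 0.056 for Spry1 and 0.163 for Dnmt3a. Without Dicer knockout replicate 1 none passed either, with adjusted p values of 0.058, 0.114, 0.131, 0.066 and 0.091 for the same genes. Against Dgcr8 knockouts 4 of the 55 were higher in Dicer knockouts and 4 lower (14.5%, beside 13.4% of all genes). Igf1r (−0.81) and Ppp3ca (−0.73) passed in all 20 alternatives of that comparison. The calls of Ccna2, E2f6, Tet2, Dnmt3a, Ezh2 (0.12), the histone methyltransferase of Polycomb, and Ncoa3 (−0.24), a nuclear receptor coactivator, were each lost in at least 6 of 20.

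The table also held probe sets named for 28 of 32 listed genes of the let-7, miR-15/16, miR-17 and miR-30 families, of which 14 passed the filter. Group means over the 28 ran between 2.06 and 6.09. In limma's test of Dicer knockouts against wild-type 0 of the 14 passed, with 2 at an unadjusted p under 0.05 (14.3%). Among all genes 11.3% passed and 23.7% had an unadjusted p under 0.05. The 14 had a median signal of 4.80, and among genes with a mean signal up to 6, 3.04% passed. In Dgcr8 knockouts 0 passed, with 0 at an unadjusted p under 0.05, beside 0.0231% and 2.64% of all genes. The sources used here do not say whether these probe sets detect mature microRNAs, hairpins or primary transcripts, so they are no measure of the mature sequences listed above.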

How the data were processed

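The authors deposited 1 value table with 35557 probe sets and 9 arrays, on a log2 scale, made with GCRMA per the submitters' processing notes. Its version and settings: not given in the sources used here. Deposited values ran between 1.046 and 13.314, with array medians between 5.479 and 5.578. Probe sets were named through the platform annotation: 21789 name 1 gene, 1621 several and 12147 are unnamed here. A gene with several probe sets was read from the brightest, by its mean of 9 arrays. Genes at 4 or more in at least 3 arrays were fitted together in limma 3.58.1 (R 4.3.3, lmFit and eBayes with trend and robust) with 3 groups and no replicate block, and p-values were adjusted by Benjamini-Hochberg over all 17324 genes; a gene passed at an adjusted p under 0.05. Intervals are the fit's own. The number of arrays, 3 per group, limits the precision.

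The members and lists were chosen with earlier results of these data known. Members that passed in any comparison, and Hmga2, Lin28a, Lin28b, Trim71, Myc, Ccnd1 and Cdkn1a whatever their result, are given for each array, with Igf2bp1, Rbl2 and Snai1 added after their values were seen; other members by their change. Genes of the second target list were named where they passed. The 20 alternatives covered the filter, normalization, probe set choice, variance model, groups in the fit, array weights, the replicate block, the threshold and each array left out.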

Additional observations from a re-analysis of the deposited data

How the results depend on the processing

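No member's change that passed, in any of the 3 comparisons, turned its direction under the 20 alternatives. In Dicer knockouts against wild-type 6 members passed; 3 passed at an adjusted p under 0.01, and leaving out 1 array gave 4 to 8, with a median change of −0.0626 to −0.0018. In Dgcr8 knockouts against wild-type 0 members passed under every alternative; the median change was 0.0176 with equal array medians and −0.007 to 0.007 with 1 array left out. In Dicer against Dgcr8 knockouts 8 members passed; 4 passed with only those groups in the fit, 5 with the replicate block, 4 at an adjusted p under 0.01, and 4 to 8 with 1 array left out, with a median change of −0.0755 to 0.0169. The cause of these shifts was not tested, beyond the fewer arrays in some fits.

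The labels do not say whether replicate numbers pair the arrays, and the correlations of their deviations do not settle it. For Dicer knockout and wild-type these were 0.038 to 0.112 between same-numbered arrays and −0.138 to 0.051 between the others. For Dgcr8 knockout and wild-type they were −0.199 to −0.015 and −0.125 to 0.139. For Dicer and Dgcr8 knockout they were −0.235 to 0.063 and −0.164 to 0.255. The block gave 7 members in Dicer knockouts and 0 in Dgcr8 knockouts against wild-type. Over all genes 1964 passed in Dicer knockouts (843 higher, 1121 lower), 1238 without wild-type replicate 3, 981 at an adjusted p under 0.01 and 2467 with quantile normalization (821 higher, 1646 lower). Against Dgcr8 knockouts 2321 passed in Dicer knockouts, 1511 without Dgcr8 knockout replicate 1 and 1127 at an adjusted p under 0.01. In Dgcr8 knockouts against wild-type 4 genes passed, and 2 to 6 over the alternatives. Signal near the floor limits Myc, Mycn, Acvr1c and Fign.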
